A study of Danio rerio with 16 samples.

Results

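The genes for the proteins of the cytosolic ribosome are described here in zebrafish embryos exposed to TCDD. Members were chosen by symbol: names starting with rpl or rps followed by a digit, the rplp genes and rpsa, without the rps6 kinase genes, and with at least 10 counts in 3 or more libraries. Of 32520 genes in the table, 86 had a matching symbol and 84 met the count minimum, 46 for the large subunit and 37 for the small subunit. The remaining member, rps19bp1, encodes a protein that binds Rps19 and is no ribosomal protein by name. The rule left out rpl32, with 0 counts in every library, and rpl21, which reached 10 counts in 2 libraries and held 74 counts in all. Among the members just inside the minimum were rpl10 (2 to 14 counts per library) and rps15 (1 to 20).

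The ribosome joins a small subunit, which reads the mRNA, to a large subunit, which forms the peptide bond. Each is a core of ribosomal RNA coated by proteins that are, with the exception of the acidic stalk proteins, present in a single copy, so that cells make them in matched amounts. In vertebrates the mRNAs of ribosomal proteins begin with a tract of pyrimidines through which mTOR signalling and the protein Larp1 adjust their stability and translation. The demand for new ribosomes is high in growing embryonic tissue, and loss of single ribosomal protein genes is known to disturb blood formation in humans and zebrafish.

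RNA was sequenced from pools of 9 whole embryos, each pool raised in a dish of its own and collected at 48 hours post fertilization (hpf). The 4 groups were wfikkn1 mutants with TCDD (n = 4), wfikkn1 mutants with DMSO (n = 4), Tropical 5D wild type with TCDD (n = 3) and Tropical 5D wild type with DMSO (n = 3). TCDD, a dioxin that activates the aryl hydrocarbon receptor, was given at 1 ng/mL for 1 h from 4 hpf, and DMSO, the vehicle, at 0.1%. The labels list 16 samples, and the wild-type samples of replicate 2, 1 with each exposure, were not analysed here. The labels do not describe the mutant allele, nor whether the pools of a line came from separate clutches, and the mutant is 1 line set against 1 wild-type strain, so that the mutation and strain background cannot be told apart.

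Libraries held 20597475 to 26884477 counts, and 20098 genes had enough counts to be tested. Of the 84 members 83 were tested and rpl10 was not. A gene was called when the p of edgeR's quasi-likelihood test, adjusted over all 20098 genes, was under 0.05. Fold changes are log2 differences between group means, given ± SE. Each SE was worked back from the quasi-likelihood test, by dividing the size of the fold change by the root of its F value. It was not taken from the fit and is not the SE of a group mean. CPM are counts scaled to the size of the library, without adjustment for transcript length, so levels are set between groups and not between genes. In the mutants the targeted gene wfikkn1 was lower than in wild type of the same exposure (log2 -4.50 ± 0.36 with TCDD and -2.95 ± 0.68 with DMSO, edgeR adjusted p = 4.16e-07 and 0.00737). It had 14 to 22 counts in mutant TCDD libraries and 0 to 4 in mutant DMSO libraries, against 214 to 520 in wild-type TCDD and 10 to 19 in wild-type DMSO libraries. The dioxin response gene cyp1a was higher with TCDD by 8.21 ± 0.12 in mutants and 7.32 ± 0.13 in wild type (log2, edgeR adjusted p = 8.23e-18 and 3.38e-16). Within groups, libraries differed along a shared axis of expression, computed from the same counts with 73 members among its genes. Gene weights were ranked with their sign, from lowest to highest, and the median member lay at percentile 13.2. That is a place toward the low end of the axis and not a small weight. On this axis mutant TCDD libraries scored -28.9 to -11.1 and mutant DMSO libraries -8.48 to 30.4. Wild-type TCDD libraries scored 14.8 to 28.1 and wild-type DMSO libraries -40.3 to 10.7.

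Ribosomal protein genes took a larger share of all counts in TCDD embryos of the mutant line, without overlap between its groups. The share was 1.97%, 2.002%, 2.03% and 1.98% in the 4 mutant TCDD libraries, against 1.39%, 1.40%, 1.40% and 1.38% in the 4 mutant DMSO libraries. In wild type it was 1.90%, 1.88% and 2.18% with TCDD, against 1.33%, 1.51% and 1.91% with DMSO. The wild-type groups overlapped through replicate 4 of the DMSO group, whose 1.91% lay above 2 of the 3 TCDD libraries. That library had the highest value of its group in 63 of the 69 members that averaged at least 5 CPM (a limit set after the values were seen), and replicate 1 had the lowest in 59. It also had the lowest axis score of all libraries, -40.3, against -0.987 and 10.7 in the other wild-type DMSO libraries. With the axis score as a term in the fit, 24 members were called higher with TCDD in mutants and 48 in wild type. Over all tested genes 963 and 683 were called higher in that fit, against 3524 and 1777 without the term. The term also takes up part of the difference between groups. Members help to form the axis, so that fit is no independent check of them. In these whole-embryo pools, more cells with much ribosomal protein mRNA and more of it per cell cannot be told apart as sources of a larger share.

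The spread of members among replicates differed by group. The median coefficient of variation over the 69 members was 7.72% in mutant TCDD and 8.90% in mutant DMSO libraries. It was 17.5% in wild-type TCDD and 25.1% in wild-type DMSO libraries. The members share these libraries and are not separate observations of the spread. The wider wild-type spread was not particular to members. Over tested genes, chi-square per degree of freedom between libraries of a group was 16.6 to 28.7 in wild type and 6.01 to 16.6 in mutants. Of these 69 members, 39 had their highest group mean in wild type with TCDD, 27 in mutants with TCDD and 3 in wild type with DMSO. The lowest group mean was that of mutants with DMSO in 60 of 69.

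**Figure D1:**
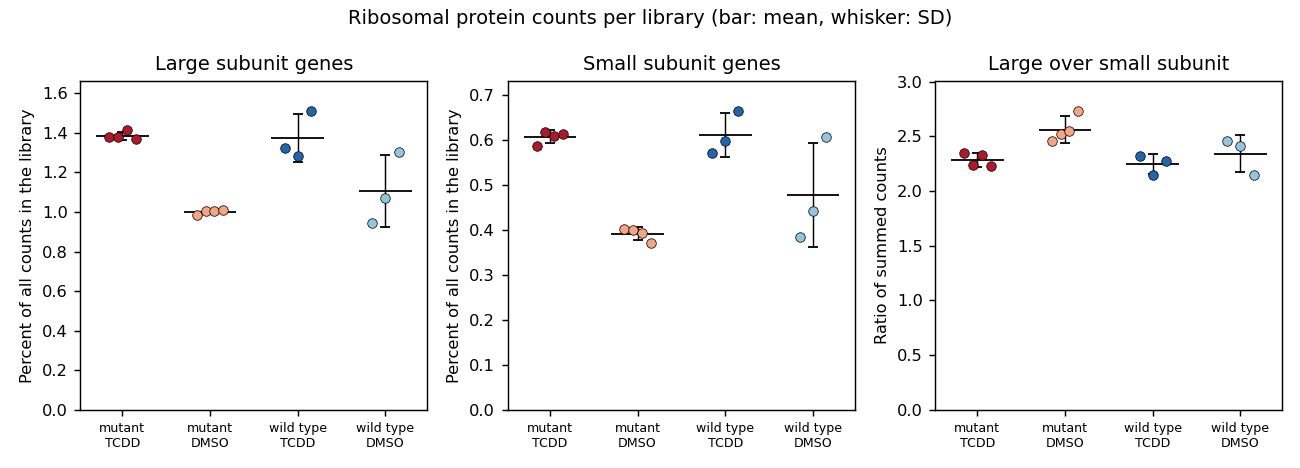
Share of all counts in each library held by large subunit genes and by small subunit genes (percent, y axes of the left and middle panels) and the ratio of the summed counts (right panel), by group. Points are libraries, bars means and whiskers SD; mutant TCDD libraries lie above all mutant DMSO libraries in both shares and below them in the ratio, while the wild-type groups overlap.

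Both subunits contributed to the larger share, the small subunit by a greater factor in mutants. Large subunit genes took 1.39% ± 0.0203 of counts in mutant TCDD libraries and 1.00% ± 0.0101 in mutant DMSO libraries (SD, n = 4 each). Small subunit genes took 0.607% ± 0.0140 in mutant TCDD libraries and 0.391% ± 0.0146 in mutant DMSO libraries (SD, n = 4 each). The ratio of large to small subunit counts was 2.35, 2.23, 2.33 and 2.23 in mutant TCDD libraries, against 2.45, 2.52, 2.54 and 2.73 in mutant DMSO libraries, with no overlap. In wild type the ratio was 2.32, 2.15 and 2.27 with TCDD, against 2.46, 2.41 and 2.15 with DMSO, and the groups overlapped. The ratio of summed counts is weighted to the few genes with most counts. Per gene, the median log2 fold change with TCDD was 0.71 for both subunits in mutants.

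In wfikkn1 mutants most ribosomal protein genes rose with TCDD, and the quartiles of the log2 fold change were 0.52 and 0.86. Of 83 tested members 62 rose (74.7%), 1 fell and 20 were not called, where 17.5% of all tested genes were called higher and 18.6% lower. The median log2 fold change was 0.71, a factor of 1.64, against 0.00 over all tested genes. By subunit, 33 of 45 large subunit genes rose and 1 fell, and 29 of 37 small subunit genes rose. The TCDD and DMSO libraries did not overlap for 67 members that were higher and 1 that was lower, where this held for 19.5% and 17.8% of all tested genes. Of the 63 calls, 57 held when any 1 library was left out, a number that was not counted over all tested genes.

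Among the small subunit genes, rps4x had the smallest adjusted p of all members. It had 139, 149.9, 144 and 138 CPM in mutant TCDD libraries, against 85.7, 85.1, 81.8 and 78.8 CPM in mutant DMSO libraries. Every TCDD library lay far above every DMSO library, a rise of 0.78 ± 0.09 (edgeR adjusted p = 1.16e-05). The gene rps15a had 65.8, 71.5, 71.2 and 73.9 CPM with TCDD and 35.1, 37.3, 38.5 and 31.8 CPM with DMSO in mutants, a rise of 0.98 ± 0.12 (edgeR adjusted p = 3.84e-05). Both groups were narrow, and the level with TCDD was 1.98 times that with DMSO. The gene for Rps19, the protein most often affected in human Diamond-Blackfan anaemia, had 164, 154, 216 and 175 CPM with TCDD, against 91.2, 90.7, 90.4 and 68.7 CPM with DMSO. It rose by 1.06 ± 0.16 (edgeR adjusted p = 0.000136), without overlap. The gene rpsa, for a small subunit protein also known as the laminin receptor, had the highest CPM of the small subunit genes, with 804, 856, 935 and 914 CPM with TCDD and 593, 568, 536 and 504 CPM with DMSO, and rose by 0.67 ± 0.11 (edgeR adjusted p = 0.000292). The genes rps3, whose protein lines the mRNA entry, and rps14 rose by 0.70 ± 0.12 and 0.66 ± 0.13 (edgeR adjusted p = 0.000309 and 0.00104).

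The largest rise among the well-counted small subunit genes was that of rps9, whose protein lies at the mRNA channel. The rps9 values were 89.2, 151, 161 and 109 CPM in mutant TCDD libraries and 45.1, 63.0, 41.4 and 27.23 CPM in mutant DMSO libraries. The spread among the TCDD libraries was wide, yet all lay above the highest DMSO library, and the rise was 1.53 ± 0.27 (edgeR adjusted p = 0.000471). The fold of 2.88 was well above that of the typical member. The genes rps25 and rps16 rose by 1.05 ± 0.15 and 1.00 ± 0.13 (edgeR adjusted p = 8.87e-05 and 4.45e-05).

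Among the large subunit genes, rpl4, whose protein lines the exit tunnel for the new peptide, had 1022, 955, 1074 and 969 CPM in mutant TCDD libraries and 706, 709.9, 658 and 589.6 CPM in mutant DMSO libraries. The groups were separated by a wide gap, and rpl4 rose by 0.59 ± 0.08 (edgeR adjusted p = 4.43e-05). The gene rpl3, whose protein reaches near the peptidyl transferase centre, had 897, 904, 864 and 883 CPM with TCDD, against 643, 616, 635 and 624 CPM with DMSO. Its rise of 0.49 ± 0.10 was smaller than the median but rested on tight groups (edgeR adjusted p = 0.000895). The gene rpl13 had 259.8, 266, 299 and 266 CPM with TCDD and 166, 167, 170.1 and 164 CPM with DMSO, a rise of 0.71 ± 0.10 (edgeR adjusted p = 8.55e-05). The largest rises among large subunit genes were in rplp2l (1.16 ± 0.18, edgeR adjusted p = 0.000142), rpl36 (1.14 ± 0.21, edgeR adjusted p = 0.000491) and rpl38 (1.02 ± 0.16, edgeR adjusted p = 0.00016), whose protein is known in mouse embryos for its part in translating Hox mRNAs. Both rpl10a (0.78 ± 0.13, edgeR adjusted p = 0.000222) and rpl23 (0.71 ± 0.14, edgeR adjusted p = 0.000876) rose by close to the median.

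The wild type showed the same direction in fewer called genes. Of 83 members 39 rose (47.0%), none fell and 44 were not called, where 8.84% of all tested genes were called higher and 5.75% lower. At an unadjusted p under 0.05, 54 members were higher and 1 lower, with no count over all tested genes to set beside them. DESeq2 called 1 member lower, and 1798 of all tested genes. The median log2 fold change was 0.53, a factor of 1.44, against 0.03 over all tested genes. A positive sign was seen in 75 of 83 members and in 10738 of 20098 tested genes. By subunit, 24 of 45 large and 15 of 37 small subunit genes rose, with medians of 0.55 and 0.48. The groups did not overlap for 26 members that were higher, where this held for 16.2% of all tested genes. The number called higher was 15 without wild-type DMSO replicate 1, 25 without DMSO replicate 3 and 15 without TCDD replicate 4. It was 10 when the 6 wild-type libraries were fitted alone. Over all tested genes 1177, 1709, 1205 and 773 were called higher in these fits, in the same order, against 1777 in the main fit. Of the 39 calls, 14 held when any 1 library was left out, a number that was not counted over all tested genes. Among them were rpl4, rpl7a, rpl8, rpl10a, rpl13, rpl22l1, rpl23a, rpl24 and rpl37a of the large subunit. Of the small subunit, rps4x, rps15a, rps16 and rps26l were among them.

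In wild type rps4x had 146, 145 and 178 CPM with TCDD and 87.0, 100.0 and 113 CPM with DMSO, without overlap. It rose by 0.64 ± 0.10 (edgeR adjusted p = 0.00117), again with the smallest adjusted p of all members. The gene rpl4 had 1003, 1055 and 1022 CPM with TCDD, against 664, 719 and 822 CPM with DMSO, and rose by 0.48 ± 0.09 (edgeR adjusted p = 0.00344). For rpl13 the values were 301, 279 and 307 CPM with TCDD and 155, 168 and 236 CPM with DMSO, a rise of 0.67 ± 0.12 (edgeR adjusted p = 0.00258). In each of these the highest DMSO value was that of replicate 4. The gene rps15a rose by 0.79 ± 0.14 (edgeR adjusted p = 0.0033) and rps19 by 0.70 ± 0.18 (edgeR adjusted p = 0.0177), a call that ended without DMSO replicate 1, TCDD replicate 3 or TCDD replicate 4 (edgeR adjusted p = 0.0645 to 0.095). Among the largest called rises in wild type were those of rpl26 (1.01 ± 0.30, edgeR adjusted p = 0.0316) and rpl18 (0.89 ± 0.25, edgeR adjusted p = 0.026). The rpl18 call ended without DMSO replicate 1, DMSO replicate 3 or TCDD replicate 4 (edgeR adjusted p = 0.0539 to 0.164), and rpl26 rests on few reads.

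Of the 39 members called higher in wild type, 38 were also called higher in mutants, which is 97.4% of the wild-type calls and 61.3% of the mutant calls. The exception was rpl26, which stood at 0.59 ± 0.25 in mutants (edgeR adjusted p = 0.0828). The overlap of calls between the lines was not counted over all tested genes, so it is not shown to be particular to members. Members called in mutants and not in wild type included rpl3, with 1034, 833 and 1043 CPM in wild-type TCDD and 702, 713 and 985 CPM in wild-type DMSO libraries (0.28 ± 0.11, edgeR adjusted p = 0.105). They also included rpsa (0.36 ± 0.13, edgeR adjusted p = 0.0717) and rpl11 (0.47 ± 0.19, edgeR adjusted p = 0.111), both with the highest DMSO value in replicate 4.

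**Figure D2:**
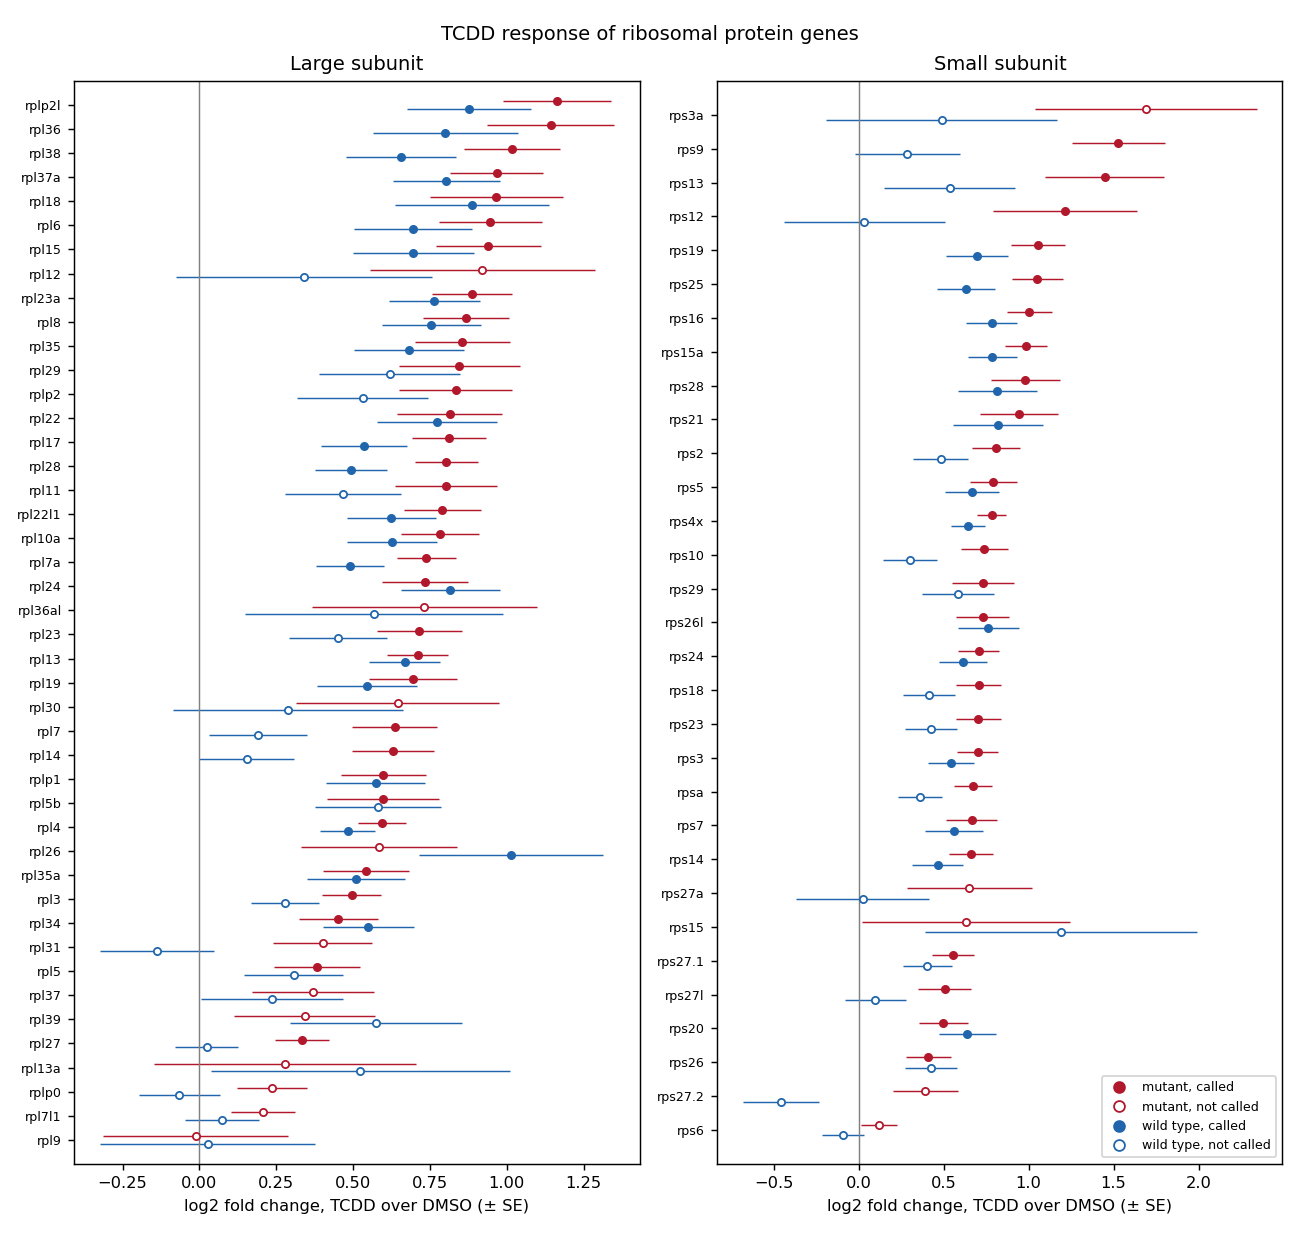
Log2 fold change of 75 tested ribosomal protein genes with TCDD over DMSO (x axis, ± SE) in mutants (red) and wild type (blue), large subunit on the left and small subunit on the right, ordered by the value in mutants. Filled points are called; most genes lie to the right of 0 in both lines.

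Some members with many counts were not called. The stalk protein Rplp0 binds a pair of Rplp1 and Rplp2 dimers and with them recruits elongation factors. Its gene had 1981, 1881, 2023 and 1897 CPM in mutant TCDD and 1559, 1779, 1742 and 1524 CPM in mutant DMSO libraries, which did not overlap and differed by 0.24 ± 0.11 (edgeR adjusted p = 0.115). In wild type rplp0 had 1703, 1975 and 1687 CPM with TCDD, against 1366, 1996 and 2253 CPM with DMSO, and stood at -0.07 ± 0.13 (edgeR adjusted p = 0.793). Its partner rplp1 rose in both lines, by 0.60 ± 0.14 in mutants and 0.57 ± 0.16 in wild type (edgeR adjusted p = 0.00317 and 0.0248). The wild-type call of rplp1 ended without DMSO replicate 1, DMSO replicate 3 or TCDD replicate 4 (edgeR adjusted p = 0.0587 to 0.132). The gene rplp2 rose in mutants (0.83 ± 0.18, edgeR adjusted p = 0.00223) and stood at 0.53 ± 0.21 in wild type (edgeR adjusted p = 0.105).

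The gene rps6 encodes the protein that S6 kinase phosphorylates downstream of mTOR. It had 449, 409.6, 443 and 448 CPM in mutant TCDD libraries, against 446, 395, 414 and 356 CPM in mutant DMSO libraries, and these overlapped (0.12 ± 0.11, edgeR adjusted p = 0.409). In wild type rps6 had 504, 439 and 462 CPM with TCDD and 443, 423 and 630.0 CPM with DMSO (-0.09 ± 0.12, edgeR adjusted p = 0.678). It was thus called in neither line. Nor was rpl31 (0.40 ± 0.16 in mutants and -0.14 ± 0.18 in wild type, edgeR adjusted p = 0.0606 and 0.676). The binding protein gene rps19bp1 stood at 0.03 ± 0.13 in mutants and -0.03 ± 0.15 in wild type (edgeR adjusted p = 0.877 and 0.93). In all, 19 of 83 tested members were called in neither line, a number that was not counted over all tested genes.

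The TCDD effect was not called different between the lines for any member. On simulated data this comparison recovered 11.5% of 61 genes changed 1.5-fold and 46.4% of 69 genes changed 2-fold, so a lack of calls does not show equal responses. The simulation changed few of its 20098 genes, drawn without regard to membership, so these shares need not hold for members. The count was 0 of 83 by edgeR and by limma-voom and 1 by DESeq2 (rps27.2), where 1.85% of all tested genes were called higher and 10.2% lower in mutants. At an unadjusted p under 0.05, 6 members were higher and none lower, again without a count over all tested genes. The sign of the difference was positive, a greater rise in mutants, for 71 members and negative for 12. Over all tested genes it was positive for 11151 and negative for 8947. The median was 0.17 over members and 0.05 over all tested genes. The difference was 1.24 ± 0.41 for rps9 (edgeR adjusted p = 0.0604) and 0.85 ± 0.29 for rps27.2 (edgeR adjusted p = 0.0716). In rps9 the wild-type libraries had 57.9, 84.2 and 88.6 CPM with TCDD and 39.3, 51.9 and 97.8 CPM with DMSO, an overlap that the mutant groups did not show. The median difference was 0.32 without wild-type DMSO replicate 1, where 5 members were called, and -0.01 without wild-type DMSO replicate 4, where none was. Over all tested genes 609 and 160 were called higher in these fits, in the same order, against 372 in the main fit. Those called lower were 2078 and 1642, against 2044 in the main fit.

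Between the lines in DMSO, most ribosomal protein genes had a lower mean in mutants, and few were called. These DMSO libraries are also those to which the TCDD libraries were compared. Of 83 members 10 were lower (12.05%), 1 was higher and 72 were not called, where 16.8% of all tested genes were called, 8.6% lower and 8.21% higher. With all libraries the share of members called lower was therefore near that of all genes. At an unadjusted edgeR p under 0.05, 28 members were lower and 3 higher. All tested genes were not counted at this unadjusted p, so these numbers cannot be set against a background. The median log2 fold change was -0.25, against 0.00 over all tested genes. A negative sign was seen in 69 of 83 members and in 9997 of 20098 tested genes. Groups did not overlap for 12 members that were lower and 2 that were higher, where this held for 12.3% and 11.4% of all tested genes. The number called lower rests on single libraries, those of the wild type most of all. It was 25 without wild-type DMSO replicate 1, where 1533 of all 20420 tested genes were lower. It was 2 without wild-type DMSO replicate 4, where 1136 of all 20408 tested genes were lower. Without mutant DMSO replicates 1 and 4 it was 6 and 5, where 1272 of all tested genes were lower in each fit. In the main fit 1728 of all tested genes were lower.

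The largest called fall was in rpl5b, a gene for Rpl5, which with Rpl11 holds the small ribosomal RNA of the large subunit. It had 17.9, 17.0, 17.4 and 14.3 CPM in mutant DMSO libraries, against 20.3, 24.5 and 43.3 CPM in wild-type DMSO libraries, and fell by 0.82 ± 0.19 (edgeR adjusted p = 0.00867). With TCDD it had 23.0, 24.0, 24.6 and 29.1 CPM in mutants and 50.6, 44.9 and 36.2 CPM in wild type, a difference of -0.80 ± 0.19 (edgeR adjusted p = 0.00474). All mutant libraries lay below all wild-type libraries of the same exposure. The DMSO call ended without wild-type DMSO replicate 4 (edgeR adjusted p = 0.0671). The gene rpl11 itself had 131, 125, 133 and 102 CPM in mutant DMSO and 148, 169.9 and 300.3 CPM in wild-type DMSO libraries (-0.75 ± 0.18, edgeR adjusted p = 0.00805), a call that also ended without wild-type DMSO replicate 4 (edgeR adjusted p = 0.0542). With TCDD rpl11 differed by -0.41 ± 0.18 without a call (edgeR adjusted p = 0.0911).

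The gene rpl35a, affected in some human Diamond-Blackfan anaemia, was lower in mutants with both exposures, at -0.43 ± 0.15 with TCDD and -0.46 ± 0.15 in DMSO (edgeR adjusted p = 0.0407 and 0.0451). The rpl35a call ended without any 1 of 8 libraries in DMSO and of 5 with TCDD, wild-type TCDD replicate 4, mutant DMSO replicate 1 and mutant TCDD replicate 2 among them in both (edgeR adjusted p = 0.0517 to 0.298 and 0.0601 to 0.178). Also called lower in DMSO were rps27.2 (-0.70 ± 0.21), rps18 (-0.52 ± 0.14), rpl7a (-0.48 ± 0.10), rpl7l1 (-0.42 ± 0.11), rps24 (-0.40 ± 0.13) and rpl3 (-0.35 ± 0.10), with edgeR adjusted p = 0.00431 to 0.0447. None of these was called with TCDD. Of these 6, the rpl7a call held when any 1 library was left out, and the other calls ended without wild-type DMSO replicate 4 and, for some, other single libraries (edgeR adjusted p = 0.051 to 0.306).

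The large subunit gene rpl37 went the other way and was higher in mutants in both exposures. It had 248, 189.6, 219.7 and 239 CPM in mutant DMSO libraries, against 113, 97.3 and 161 CPM in wild-type DMSO libraries (0.86 ± 0.22, edgeR adjusted p = 0.0137). With TCDD it had 315, 310.4, 248 and 285 CPM in mutants and 155, 82.2 and 200.3 CPM in wild type (0.99 ± 0.22, edgeR adjusted p = 0.00294). All mutant libraries lay above all wild-type libraries of the same exposure, and the mutant level with TCDD was 1.99 times that of wild type. The response of rpl37 to TCDD was not called in either line (0.37 ± 0.20 in mutants, edgeR adjusted p = 0.16, and 0.23 ± 0.23 in wild type, edgeR adjusted p = 0.548).

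With TCDD few members were called between the lines, in both directions. Of 83 members 3 were higher in mutants, 3 lower and 77 not called, where 10.7% of all tested genes were called higher and 16.9% lower. The number higher was 5 without wild-type TCDD replicate 4, where 1859 of all tested genes were higher, against 2157 in the main fit. The number lower was 1 without mutant DMSO replicate 1 or mutant TCDD replicate 3. It was 5 without wild-type DMSO replicate 1 and 7 without wild-type DMSO replicate 4. Over all tested genes 2950, 3163, 3378 and 3602 were lower in these fits, in the same order, against 3395 in the main fit. The median log2 fold change was -0.04, with 36 positive and 47 negative signs. Over all tested genes 10082 signs were positive and 10016 negative. Groups did not overlap for 4 members that were higher and 10 that were lower, where this held for 16.4% and 20.8% of all tested genes. Beside rpl37, the large subunit genes rpl14 and rpl27 were higher in mutants with TCDD. The gene rpl14 had 142, 179, 197 and 145 CPM in mutant TCDD libraries, against 89.8, 93.2 and 126 CPM in wild-type TCDD libraries (0.69 ± 0.15, edgeR adjusted p = 0.00212). Every mutant library was above every wild-type library. The gene rpl27 had 325, 265, 367 and 297 CPM in mutants and 237, 215 and 207 CPM in wild type with TCDD (0.51 ± 0.10, edgeR adjusted p = 0.000754), also without overlap. The calls of rpl37, rpl14, rpl27 and rpl5b with TCDD held when any 1 library was left out. In DMSO rpl14 and rpl27 stood at 0.21 ± 0.14 and 0.20 ± 0.10 (edgeR adjusted p = 0.35 and 0.151). Among the members lower in mutants with TCDD were rpl5b and rpl35a. The rps9 groups did not overlap, and its p missed the threshold (0.73 ± 0.29, edgeR adjusted p = 0.0741).

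Libraries numbered 1 to 8 and 9 to 16 gave different line differences in DMSO. Among the 69 members of at least 5 CPM the median log2 difference of mutant over wild type in DMSO was 0.13 in the lower numbers (2 libraries against 1, 48 members positive). It was -0.40 in the higher numbers (2 against 2, 7 positive). The 1 wild-type DMSO library of the lower numbers was replicate 1, lowest of its group in 59 members. The higher numbers held replicate 4, highest in 63. Library number and these single libraries cannot be told apart here. The median log2 difference of TCDD over DMSO in mutants was 0.68 in the lower and 0.74 in the higher numbers (2 libraries against 2 in each). In wild type it was 0.42 in the higher numbers (2 against 2), and in the lower numbers 1 library against 1 gave 0.74, which has no replicate and says nothing of stability. What the numbers stand for is not given in the sources used here.

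**Figure D3:**
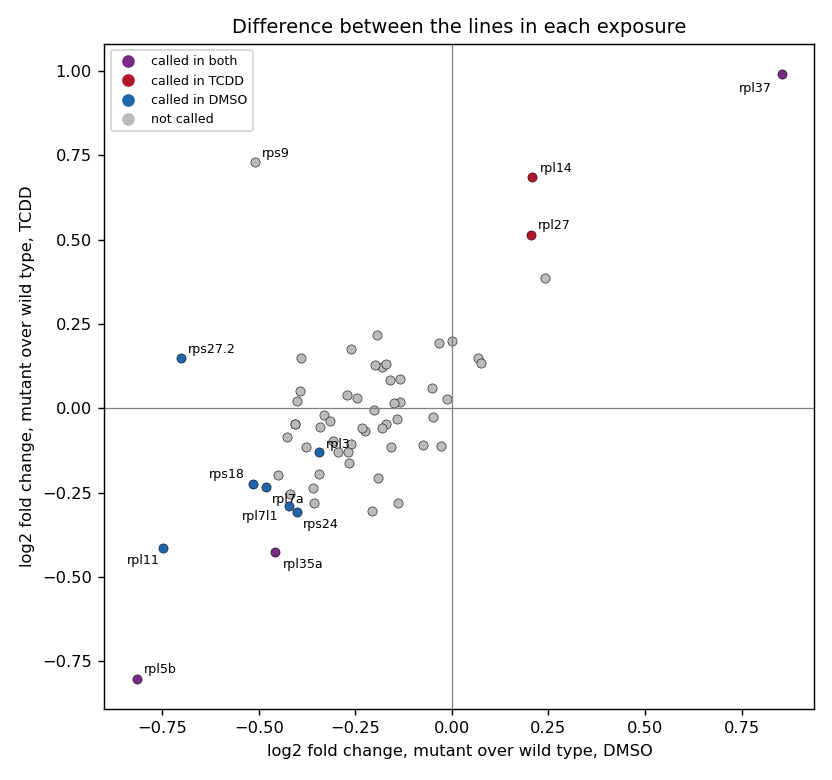
Log2 fold change of mutant over wild type in DMSO (x axis) and with TCDD (y axis) for 64 members of at least 5 CPM, rps19bp1 among them, coloured by call. Most points lie left of 0 on the DMSO axis and about 0 on the TCDD axis; rpl37 is high and rpl5b and rpl35a are low in both.

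**Figure D4:**
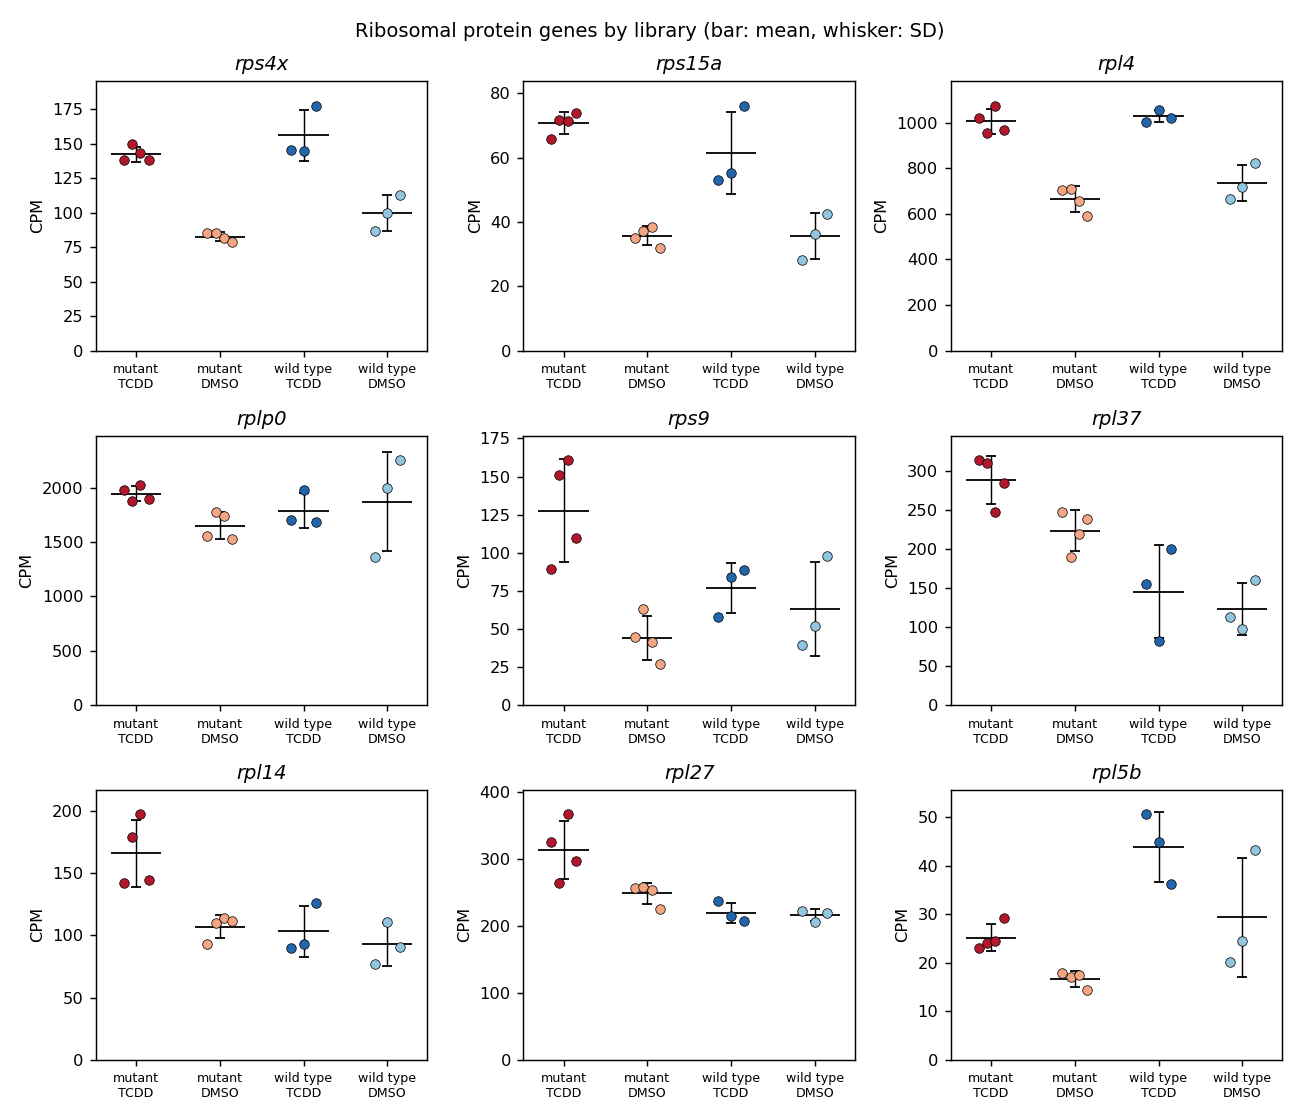
CPM of 9 ribosomal protein genes in each library (points) by group, with mean (bar) and SD (whisker). The genes rps4x, rps15a and rpl4 are higher with TCDD in both lines, rplp0 overlaps in wild type, and rpl37, rpl14, rpl27 and rpl5b differ between the lines with TCDD.

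Zebrafish keep several ribosomal protein genes in more than 1 copy, and reads could be split between near-identical copies, so the values of each copy are uncertain. Whether copies differ from each other in response was not tested. With TCDD in mutants, rpl5 rose by 0.38 ± 0.14 (edgeR adjusted p = 0.0412) and rpl5b by 0.60 ± 0.18 (edgeR adjusted p = 0.017), calls that ended without any 1 of 7 mutant libraries for rpl5 (all but TCDD replicate 3) and without DMSO replicate 4 or TCDD replicate 4 for rpl5b, and in wild type they stood at 0.31 ± 0.16 and 0.58 ± 0.21 (edgeR adjusted p = 0.224 and 0.0676). In mutants rpl22 rose by 0.81 ± 0.17 and rpl22l1 by 0.79 ± 0.13, and in wild type by 0.77 ± 0.20 and 0.62 ± 0.15, all called (edgeR adjusted p = 0.000201 to 0.0155). The wild-type call of rpl22 ended without DMSO replicate 1 or TCDD replicate 4 (edgeR adjusted p = 0.0673 to 0.0887). The pair rps26 and rps26l rose in mutants by 0.41 ± 0.13 and 0.73 ± 0.16 (edgeR adjusted p = 0.0232 and 0.0018), and in wild type rps26l rose (0.76 ± 0.18, edgeR adjusted p = 0.0113) and rps26 stood at 0.42 ± 0.15 (edgeR adjusted p = 0.0733). The rps26 call in mutants ended without DMSO replicate 2 or 4 or TCDD replicate 1 or 4 (edgeR adjusted p = 0.0554 to 0.0679). The acidic stalk copy rplp2l rose in wild type by 0.88 ± 0.20 (edgeR adjusted p = 0.00993), a call that ended without TCDD replicate 4 (edgeR adjusted p = 0.051).

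The copies of Rps27 had estimates of unlike sign in wild type. In mutants rps27.2 had 374, 415, 415 and 361 CPM with TCDD, against 283, 323, 311 and 275 CPM with DMSO (0.39 ± 0.19, edgeR adjusted p = 0.123). In wild type rps27.2 had 247, 400.1 and 412 CPM with TCDD and 296, 457 and 703 CPM with DMSO (-0.46 ± 0.22, edgeR adjusted p = 0.184). The wild-type DMSO libraries of rps27.2 spread more than 2-fold, and neither difference was called. The copy rps27.1 rose in mutants (0.55 ± 0.12, edgeR adjusted p = 0.00236) and stood at 0.40 ± 0.14 in wild type (edgeR adjusted p = 0.0673). The copy rps27l rose in mutants (0.51 ± 0.16, edgeR adjusted p = 0.0171), a call that ended without mutant TCDD or DMSO replicate 2 (edgeR adjusted p = 0.0835 and 0.053), and stood at 0.10 ± 0.18 in wild type (edgeR adjusted p = 0.775). For Rpl7, rpl7 rose in mutants (0.64 ± 0.14, edgeR adjusted p = 0.002) and stood at 0.19 ± 0.16 in wild type (edgeR adjusted p = 0.47). The related rpl7l1 stood at 0.21 ± 0.10 and 0.07 ± 0.12 (edgeR adjusted p = 0.134 and 0.739).

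The remaining 15 members averaged under 5 CPM, and 14 of them were tested. The largest fold changes of the whole set were among them and rested on few reads. In mutants rps3a stood at 1.69 ± 0.65 (edgeR adjusted p = 0.0526), with 10, 76, 7 and 15 counts in TCDD libraries and 12, 7, 6 and 8 counts in DMSO libraries. The value rests on replicate 2 with TCDD, since the other TCDD libraries lay within the range of the DMSO group or just above it. The gene rps13 had 48, 31, 48 and 116 counts with TCDD and 18, 21, 19 and 28 counts with DMSO in mutants and was called higher (1.45 ± 0.35, edgeR adjusted p = 0.00405). The gene rps12 was called as well (1.21 ± 0.42, edgeR adjusted p = 0.0336) on 12, 28, 23 and 25 counts with TCDD and 10, 5, 11 and 11 counts with DMSO. The rps12 groups overlapped, and the call ended without mutant DMSO replicate 2 or 4 or TCDD replicate 2, 3 or 4 (edgeR adjusted p = 0.053 to 0.104). In wild type rpl26 had 55, 59 and 85 counts with TCDD, against 20, 39 and 37 counts with DMSO, and its call ended without DMSO replicate 1 or 4 or TCDD replicate 4 (edgeR adjusted p = 0.0515 to 0.154).

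Not called, and of low count, were rps15 in wild type (1.19 ± 0.80, edgeR adjusted p = 0.353) and rpl9 in mutants (-0.01 ± 0.30, edgeR adjusted p = 0.98). Between the lines in DMSO, rps3a stood at -1.31 ± 0.71, rps27a, which encodes a fusion of ubiquitin to Rps27a, at -1.06 ± 0.39 and rps13 at -0.86 ± 0.39 (edgeR adjusted p = 0.219, 0.0698 and 0.137). On the higher side rps15 stood at 0.87 ± 0.77 and rpl39 at 0.62 ± 0.26 (edgeR adjusted p = 0.481 and 0.118). The untested rpl10 had 9, 3, 14 and 2 counts in mutant TCDD, 4, 3, 7 and 2 in mutant DMSO, 4, 10 and 8 in wild-type TCDD and 7, 7 and 10 in wild-type DMSO libraries. How reads that fit more than 1 place were treated is not given in the sources used here, so a low count need not be a low mRNA level.

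The members followed one another across libraries. The Pearson correlation of log2 CPM with the mean of the members over the 14 libraries, given as a description, reached 0.983 for rps25 and 0.980 for rps3 and was 0.216 for rpl37 and 0.249 for rpl27. Of genes outside the set, those most like the mean of the members were actc1b, a striated muscle actin (r = 0.981), eef1b2, an exchange factor of elongation factor 1 (r = 0.975), nsa2, which acts in large subunit assembly (r = 0.972), vdac1, a channel of the outer mitochondrial membrane (r = 0.972), and rnf7, a subunit of ubiquitin ligases (r = 0.971). These correlations hold both group differences and spread within groups.

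Other translation lists had smaller medians than the ribosomal proteins. Of all tested genes, 17.5% were called higher and 18.6% lower with TCDD in mutants, and 8.84% higher and 5.75% lower in wild type, with medians of 0.00 and 0.03. Of 13 tested elongation factor genes 8 rose (61.5%) and 2 fell with TCDD in mutants (median 0.40), and 5 rose (38.5%) and 1 fell in wild type (median 0.29). Among them eef2b, which moves the ribosome along the mRNA, rose by 0.93 ± 0.11 in mutants (edgeR adjusted p = 2.61e-05), and its TCDD effect was larger in mutants than in wild type by 0.62 ± 0.17 (edgeR adjusted p = 0.0209). The exchange factor gene eef1b2 rose by 0.71 ± 0.11 in mutants and 0.55 ± 0.13 in wild type (edgeR adjusted p = 0.00019 and 0.0109). Of 38 initiation factor and regulator genes, 19 rose (50.0%) and 1 fell in mutants (median 0.45), and 7 rose (18.4%) and 2 fell in wild type (median 0.10). The initiation factor subunit gene eif3i rose by 1.09 ± 0.14 in mutants and 0.67 ± 0.16 in wild type (edgeR adjusted p = 3.94e-05 and 0.0114). The poly(A) binding protein gene pabpc1a rose by 0.68 ± 0.08 and 0.39 ± 0.09 (edgeR adjusted p = 1.9e-05 and 0.00985).

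Of 10 genes for ribosome-bound proteins and other mRNAs with pyrimidine tracts, 6 rose in mutants and 3 in wild type, and none fell, where 17.5% and 8.84% of all tested genes were called higher. The small subunit scaffold gene rack1 rose by 0.68 ± 0.12 in mutants and 0.59 ± 0.14 in wild type (edgeR adjusted p = 0.000431 and 0.011). Of 86 ribosome assembly and RNA polymerase I genes, 42 rose (48.8%) and 2 fell in mutants (median 0.35). In wild type 6 rose (6.98%) and 1 fell (median 0.05), and the share that rose was below the 8.84% of all tested genes. The gene nsa2 rose by 1.08 ± 0.13 in mutants and 0.75 ± 0.15 in wild type (edgeR adjusted p = 2.63e-05 and 0.00492). Of 65 mitochondrial ribosome genes, 32 rose (49.2%) and 2 fell in mutants (median 0.41). In wild type 1 rose (1.54%) and 3 fell (4.62%), both shares below those of all tested genes (median 0.09).

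**Figure D5:**
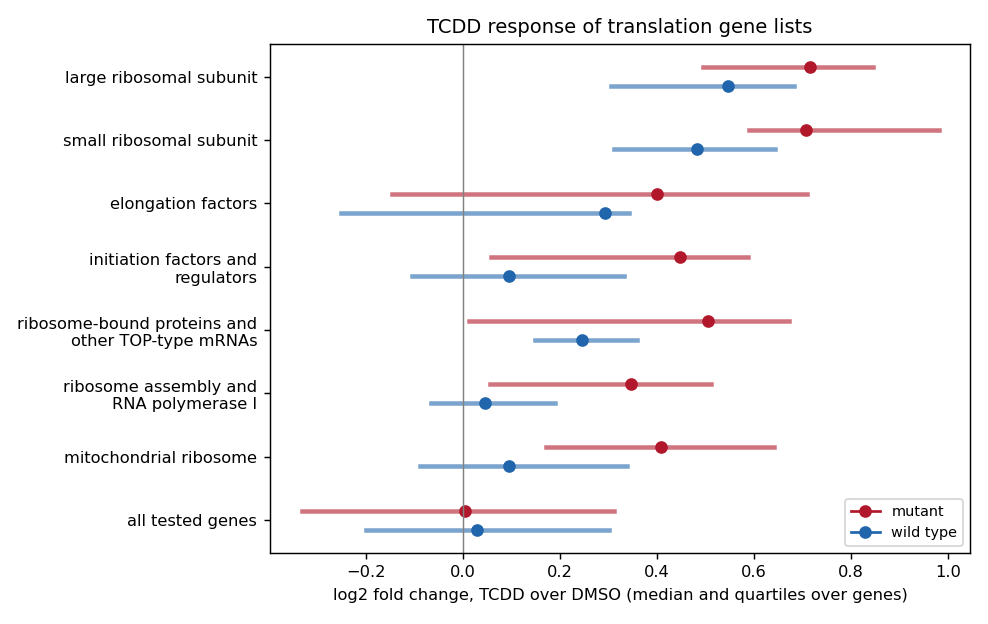
Median (point) and quartiles (line) over genes of the log2 fold change with TCDD over DMSO (x axis) in mutants (red) and wild type (blue), for the ribosomal subunits, other translation lists and all tested genes. The ribosomal subunits have the highest medians in both lines, 0.71 and 0.71 in mutants and 0.55 and 0.48 in wild type, and all tested genes lie near 0.

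Of 14 tested genes for mTOR signalling and control of these mRNAs, 4 rose and 4 fell with TCDD in mutants (28.6% each), where 17.5% of all tested genes were called higher and 18.6% lower. In wild type 1 rose and 1 fell (7.14% each), near the 8.84% and 5.75% of all tested genes. The kinase gene mtor fell in mutants (-0.87 ± 0.11, edgeR adjusted p = 4.81e-05), as did rictora, for a subunit of the second mTOR complex (-0.78 ± 0.11, edgeR adjusted p = 6.89e-05). Both effects differed between the lines, by -0.88 ± 0.17 for mtor and -1.10 ± 0.16 for rictora (edgeR adjusted p = 0.00215 and 0.000274). The gene larp1, whose protein binds pyrimidine tracts, rose in mutants (0.69 ± 0.13, edgeR adjusted p = 0.000683).

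Some marker genes of cell types were called with TCDD beside the ribosomal protein genes. These short lists are read against the 17.5% of all tested genes called higher and 18.6% lower in mutants, and the 8.84% higher and 5.75% lower in wild type. Of 8 tested fast muscle markers 4 rose in mutants and 3 in wild type, and the summed level of the list was 27724 to 33065 CPM in mutant TCDD and 21923 to 24606 CPM in mutant DMSO libraries, against 30696 to 36510 CPM in wild-type TCDD and 25084 to 31916 CPM in wild-type DMSO libraries. The muscle actin gene actc1b rose by 0.90 ± 0.12 in mutants and 0.62 ± 0.14 in wild type (edgeR adjusted p = 5.43e-05 and 0.00863), and mylpfa was under 1 CPM in all libraries. Of 11 tested yolk syncytium and liver markers 7 rose in mutants and 3 in wild type, with summed levels of 19325 to 21437 CPM in mutant TCDD, 16808 to 21991 CPM in mutant DMSO, 22270 to 27589 CPM in wild-type TCDD and 20414 to 23630 CPM in wild-type DMSO libraries, and ttr at 0 in 4 libraries. Of 5 tested erythroid markers 3 rose with TCDD in mutants and 1 in wild type, and in DMSO 4 were lower in mutants, where 8.6% of all tested genes were. Their summed level was 632 to 790.4 CPM in mutant TCDD, 433 to 573 CPM in mutant DMSO, 972 to 1409 CPM in wild-type TCDD and 976 to 1330 CPM in wild-type DMSO libraries, with alas2 at 0 in 1 library. The part of these cell types in the ribosomal protein values was not tested.

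In DMSO 4 of the 8 fast muscle markers were called lower in mutants and 1 higher, and 7 had a negative sign. The 1 higher stood at log2 2.98, a fold that only mylpfa spans, at 0.04 to 0.99 CPM over all libraries. Of the 11 yolk and liver markers 5 were lower. Over all tested genes 8.6% were called lower and 8.21% higher. Of 9 tested proliferation markers 2 rose (22.2%) and 1 fell (11.1%) with TCDD in mutants, near the 17.5% and 18.6% of all tested genes, and 1 fell in wild type, with summed levels of 1369 to 1668 CPM in mutant TCDD, 1542 to 1722 CPM in mutant DMSO, 1304 to 1405 CPM in wild-type TCDD and 1311 to 1421 CPM in wild-type DMSO libraries, and plk1 at 0 in 8 libraries. Of 7 neuron markers 1 rose and 2 fell in mutants, and 2 fell in wild type. Of all tested genes 18.6% were called lower in mutants and 5.75% in wild type. Of 5 lens markers 2 rose in mutants and 1 in wild type. The lens list summed to 326 to 348 CPM in mutant TCDD and 228 to 276 CPM in mutant DMSO libraries. In wild type its sum was 293 to 382 CPM with TCDD and 267 to 353 CPM with DMSO, which overlapped. The summed level of the neuron list was 3384 to 3576 CPM in mutant TCDD, 3822 to 3874 CPM in mutant DMSO, 3444 to 3705 CPM in wild-type TCDD and 3761 to 4126 CPM in wild-type DMSO libraries. Of 3 tested epidermis markers none was called with TCDD in either line. Between the lines 2 were lower in mutants in DMSO, and with TCDD 1 was higher and 1 lower, where 10.7% of all tested genes were called higher and 16.9% lower. Their summed level was 2135 to 2495 CPM in mutant TCDD, 1580.2 to 1661 CPM in mutant DMSO, 2497 to 5720.1 CPM in wild-type TCDD and 3180 to 7479 CPM in wild-type DMSO libraries, with krt5 at 0 in 4 libraries. Markers of muscle, blood, yolk, neurons, lens and skin were thus counted in every library, as whole embryos would give.

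The authors' deposited table of genes past their threshold lists 61 members higher and none lower with TCDD in mutants, and the authors' deposited table for wild type lists 34 higher and none lower. For the lines, the authors' deposited tables list 1 member higher and 9 lower in mutants in DMSO, and 3 higher and 3 lower with TCDD. Of the members called here, the authors' deposited tables hold 61 of 63 for TCDD in mutants, 34 of 39 for TCDD in wild type, 10 of 11 for the lines in DMSO and 6 of 6 for the lines with TCDD.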

How the data were processed

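Counts per gene were deposited by the authors as whole numbers, from poly(A)-selected stranded libraries read as single ends of 100 bases on 6 lanes, per the labels. Per the submitters' processing notes reads were handled with HTSeq 0.12.4, SAMtools 1.10, HISAT2 2.2.0, cutadapt 1.8.1 and edgeR on assembly GRCz11. The strand setting, annotation release and treatment of multi-mapped reads are not given in the sources used here. The authors' deposited tables hold log2 ratios, mean log2 CPM, an F score and p-values of genes past their threshold. They were used for 1 count of members and for gene names where they held one, by which members and lists were found. The count table was fitted with edgeR 4.0.16 in R 4.3.3 (filterByExpr, TMM scaling, quasi-likelihood F test, 1 mean per group over all 14 libraries, Benjamini-Hochberg adjustment). Alternatives were DESeq2 1.42.0, voom from limma 3.58.1, other scalings, filters, terms and libraries left out. The fit was tested on simulated data.

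Genes with no name in the authors' tables took it from a reference table for 18822 IDs, 10902 had one from the authors and 2796 had none. Members and lists were chosen with earlier results of these data known. Members were named by rule: the 4 largest and 4 smallest fold changes per comparison, calls against the majority, the most counted of each subunit, gene copies, and a list fixed by role. Also named, after their values were seen, were rps25, rps16, rpl36, rpl38, members called between the lines and those whose calls held in every fit. From other lists, up to 4 called genes of smallest adjusted p per comparison could be named, and 1 list is not reported here. All duplicate checks between libraries of a group gave differences above sampling noise, and p-values measure only the spread between these dishes. Counts and medians cover all tested members; the values of some genes are not reported here, and those genes are not drawn in the plots of single genes.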

Additional observations from a re-analysis of the deposited data

Results flagged for a closer look

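Among the mutant groups of 4, 17 of 176 sets of values examined had 1 library far from the other 3 of its group relative to the group's range. The limit used gives about 1 in 20 by chance for independent normal values. These sets share the same libraries and some rest on few counts, so the number flagged does not show an excess. The mutant TCDD library of replicate 1 was high, at 1.40 CPM for rps27a against 0.706 to 0.815 in the other 3 libraries of the group. The mutant TCDD library of replicate 2 was high, at 135 CPM for rps27.1 against 117 to 119, 499 CPM for rpl18 against 286 to 308, 3.35 CPM for rps3a against 0.324 to 0.582 and 145 CPM for rpl22 against 112 to 117 in the other 3 libraries of the group. The mutant TCDD library of replicate 2 was low, at 409.6 CPM for rps6 against 443 to 449 in the other 3 libraries of the group. The mutant TCDD library of replicate 3 was high, at 299 CPM for rpl13 against 259.8 to 266 in the other 3 libraries of the group. The mutant TCDD library of replicate 3 was low, at 255 CPM for rpl5 against 332 to 334 in the other 3 libraries of the group. The mutant DMSO library of replicate 1 was high, at 41.1 CPM for rpl24 against 31.4 to 31.9 and 66.4 CPM for rps3 against 60.4 to 61.1 in the other 3 libraries of the group. The mutant DMSO library of replicate 2 was low, at 0.183 CPM for rps12 against 0.453 to 0.496 in the other 3 libraries of the group. The mutant DMSO library of replicate 3 was high, at 9.02 CPM for rpl13a against 2.06 to 2.199 in the other 3 libraries of the group. The mutant DMSO library of replicate 4 was low, at 226 CPM for rpl27 against 254 to 259, 8.24 CPM for rps21 against 10.5 to 10.9, 68.7 CPM for rps19 against 90.4 to 91.2, 59.6 CPM for rps24 against 78.6 to 81.3 and 123 CPM for rps18 against 149.7 to 151 in the other 3 libraries of the group. Replicate 4 of the mutant DMSO group thus stood low in 5 of these genes, rpl27, rps21, rps19, rps24 and rps18. It also had the lowest summed share of the small subunit, 0.370% of counts against 0.394% to 0.402% in the other mutant DMSO libraries.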

How the results depend on the processing

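When each library was left out in turn, the number of members higher with TCDD was 58 to 65 in mutants and 15 to 55 in wild type, with 55 without wild-type DMSO replicate 4, and the number lower was 0 to 2 in mutants and 0 to 1 in wild type. Between the lines it was 1 to 2 higher and 2 to 25 lower in DMSO, and 3 to 5 higher (5 without wild-type TCDD replicate 4) and 1 to 7 lower with TCDD. The TCDD effect differed in 0 to 5 members higher and 0 to 0 lower. Over all tested genes 2748 to 3551 were higher with TCDD in mutants in these fits, and 1177 to 1839 in wild type. Those lower with TCDD were 3084 to 4304 in mutants and 602 to 1478 in wild type. Without wild-type DMSO replicate 4, 1194 were higher in wild type. Between the lines 928 to 1877 were higher and 1136 to 1775 lower in DMSO. With TCDD 1430 to 2747 were higher and 2609 to 3602 lower. The difference was called higher in 132 to 609 of all tested genes and lower in 1623 to 2233. The median log2 fold change ranged from 0.68 to 0.74 in mutants, 0.36 to 0.73 in wild type, -0.38 to -0.03 between the lines in DMSO, -0.09 to 0.10 with TCDD and -0.01 to 0.32 for the difference. With the score on the within-group axis as a term, 24 members were higher and 0 lower in mutants (median 0.47), 48 were higher in wild type (median 0.79), 2 were higher and 1 lower between the lines in DMSO, 10 were lower with TCDD (median -0.31), and the median difference turned to -0.255. Because group means differ on this axis, that term also takes up part of a difference between groups. Members help to form the axis, so the term is not independent of them. Over all tested genes 963 were higher with TCDD in mutants and 683 in wild type with the term, against 3524 and 1777 without it. Those lower in mutants were 1260 with the term and 3729 without it. Between the lines 793 of all tested genes were higher and 1003 lower in DMSO with the term, and 861 were lower with TCDD. In wild type 1 member was lower with DESeq2 and with no filter on low counts, where 1798 and 1347 of all tested genes were. In wild type 10 members were higher when only the groups compared were fitted. In that fit 5 members were lower between the lines in DMSO and 8 with TCDD. Over all tested genes it gave 773 higher with TCDD in wild type. Between the lines it gave 1169 of all tested genes lower in DMSO and 3546 with TCDD. In mutants 2 members were lower with library numbers 1 to 8 against 9 to 16 as a term, where 3679 of all tested genes were. The difference was called in 2 members with no filter, 1 with a CPM filter and 1 with DESeq2, all higher. Over all tested genes 571, 779 and 832 were called higher in these fits, in the same order. The cause was not tested. With the replicate number as a block, 2 members were lower with TCDD in mutants and the difference was called in 2 (rps9 and rps27.2). Over all tested genes 3520 were lower with TCDD in mutants in that fit, and the difference was called higher in 317. Of 19 same-numbered library pairs 4 correlated above 0.1, with values from -0.217 to 0.174 over the pairs, so the numbers were taken as names only. Other scalings moved the median of all genes by under 0.1. The alternative that corrects for coding length was not run. With this depth the 15 members under 5 CPM carry little information.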
